A study of Mus musculus with 8 samples.

Results

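Annexins are cytosolic proteins that bind acidic phospholipids of membranes when calcium rises, and they take part in vesicle traffic, membrane repair and the linkage of membranes to actin. S100a10, also called p11, is an S100 protein that has lost calcium binding and pairs with the N-terminus of Anxa2, and at the cell surface the resulting tetramer captures plasminogen and its activator. In blood cells annexins are best known from monocytes, macrophages and neutrophils, and Anxa1 is known as a restraint on inflammation. The 9 genes described here are Anxa1, Anxa2, Anxa3, Anxa4, Anxa5, Anxa6, Anxa7, Anxa11 and S100a10, read from every non-control probe that carries one of these names. They were 9 of 36095 named features and 12 of 55681 probes. Anxa1, Anxa7 and Anxa11 had more than 1 probe each, and the probe of a gene was selected on its mean log2 processed signal over all 8 arrays, the highest being used, a choice that did not use the groups. The genes themselves were named with earlier results of this comparison known, so their differences are described here and are no independent support for one another.

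The cells were Sca-1+ plasmacytoid dendritic cells (pDC, the dendritic cells specialised in type I interferon production), set against Sca-1- pDC, with 4 samples in each group. Sca-1 is the surface protein encoded by Ly6a. All 8 samples came from female BALB/c mice, with no age and no genetic change named beyond the Sca-1 status, and were pDC grown from bone marrow precursors in culture with the cytokine mFlt3-L, then separated by magnetic and flow cytometric sorting. No other agent is named for either group. Whether replicates were separate cultures or mice is not stated in the labels. The p-values therefore reflect only how far these samples differ among themselves, and part of that may be technical.

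Of the non-control spots, 45.9% to 54.9% were well above background on an array. The label pDC held against its markers, since all 14 pDC markers on the list were well above background on every array. Their summed signal was 2579 to 3104 times the array 75th percentile in Sca-1+ samples and 2214 to 2878 times in Sca-1- samples. On average 11 were higher and 3 lower in Sca-1+ samples. In limma, 0 were called higher unpaired and 3 (Ccr9, Irf7 and Tlr7) with the replicate number as a block, against 0.126% and 2.1% of all tested genes. The basophil and mast cell list summed to 0.34 to 22.3 in Sca-1+ and 0.39 to 17.8 in Sca-1- samples, lowest in replicate 4 of both groups. The part of such cells was not tested. Ly6a checked the sort, at 7.43 ± 0.28 in Sca-1+ pDC and 2.78 ± 0.44 in Sca-1- pDC (log2 level, SD, n = 4 each, limma adjusted p = 0.000625). Arrays with the same replicate number lay on the same slide, the Sca-1+ sample at position 2 and the Sca-1- sample at position 1 on all slides, so position and group cannot be told apart. The slide of replicate 4 was read under a different image extraction protocol from the other slides and was brighter, with a 75th percentile signal of 396 and 434 in its Sca-1+ and Sca-1- samples.

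The probes through which the genes were seen are shown because they fix what was measured. Each is 60 bases long, and 30 of its bases are printed as they stand on the array, 5′ to 3′, with mm9 positions of the whole probe from the file headers. Capitals mark AATAAA, the hexamer that directs cleavage and polyadenylation at the end of messenger RNAs. The Anxa2 probe, at chr9:69339532-69339591 on the plus strand, is shown by bases 30 to 59. The S100a10 probe is at chr3:93368437-93368496 on the plus strand and is shown by bases 1 to 30. Both Anxa1 probes lie on the minus strand, the main one at chr19:20447938-20447997 (bases 31 to 60) and the second at chr19:20449722-20449781 (bases 1 to 30). The Anxa3 probe is at chr5:97253925-97253984 on the plus strand, and the Anxa6 probe at chr11:54792616-54792675 on the minus strand, both shown by bases 1 to 30.
Anxa2: tactgtgtcgtgAATAAAccgtttttactt
S100a10: caaatgagatccaactccaattcaacaatc
Anxa1 main probe: cctgagaaagaagtttacatatAATAAAat
Anxa1 second probe: tgacatgaatgaaatcaaagtattttacca
Anxa3: ggatgacattagctctgagacgtctggaga
Anxa6: ccacataaccctgcctgacttgagctttgt

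The hexamer was found in 4 of the 12 probes (main probes of Anxa1, Anxa2 and Anxa11, and the second probe of Anxa7) and in 10.1% of all 55681 probes. Its reverse complement TTTATT was found in 0 of the 12 and in 3.74% of all. A match is a description of these letters. Exon and untranslated region positions of the probes were not analysed here.

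Anxa2 was the only 1 of the 9 genes called lower in Sca-1+ pDC by the unpaired limma fit. A level here is the log2 processed signal of a probe minus the 75th percentile of its array, and it serves to compare samples for 1 probe, never 1 probe with another. Anxa2 stood at 2.10, 1.62, 0.92 and 0.19 in Sca-1+ replicates 1 to 4, against 4.28, 3.34, 3.15 and 3.15 in Sca-1- replicates 1 to 4. Every Sca-1+ sample lay below every Sca-1- sample, and the Sca-1+ samples were the more spread of the groups. The means were 1.21 ± 0.83 in Sca-1+ and 3.48 ± 0.54 in Sca-1- pDC (SD, n = 4 each), a log2 difference of -2.27 ± 0.43 (SE, 95% interval -3.26 to -1.28) or 4.83-fold lower (limma, Benjamini-Hochberg adjusted p = 0.0431 over 19818 tested genes). Within replicates the differences were -2.18, -1.72, -2.23 and -2.96. With the replicate number as a block, the same difference had an SE of 0.20 and an adjusted p of 0.00387. Before scaling, the Anxa2 signal was 712, 591, 380 and 452 units in Sca-1+ samples, against 4522, 1538, 1848 and 3864 units in Sca-1- samples.

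The unpaired call of Anxa2 lay close to the threshold of 0.05. Its difference stayed negative under all 22 alternatives tried, between -2.57 and -1.93, but the adjusted p ranged from 0.00387 to 0.342 and passed in 9 of them. With 1 Sca-1+ sample left out it missed the threshold for replicates 2, 3 and 4 (adjusted p = 0.0892, 0.162 and 0.0505). With 1 Sca-1- sample left out it missed it for replicates 1, 2 and 3 (adjusted p = 0.134, 0.130 and 0.105). In a sorted bulk sample, fewer cells that carry a transcript and less of it per cell cannot be told apart.

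S100a10, the partner of Anxa2, was lower in the Sca-1+ sample of each replicate, by less than Anxa2. Its levels were 3.02, 3.10, 2.92 and 2.62 in Sca-1+ pDC, against 3.96, 3.83, 3.72 and 2.96 in Sca-1- pDC. The groups overlapped because the Sca-1- sample of replicate 4 lay below 2 of the Sca-1+ samples, those of replicates 1 and 2. The mean was 2.92 ± 0.21 in Sca-1+ and 3.62 ± 0.45 in Sca-1- samples (SD, n = 4 each). The difference of -0.70 ± 0.23 (SE, 95% interval -1.23 to -0.16) missed the threshold in the unpaired fit (limma, adjusted p = 0.321) and passed it with the replicate block (limma, adjusted p = 0.0317). The differences within replicates were -0.94, -0.73, -0.80 and -0.33, the smallest of them on the slide of replicate 4. Without the Sca-1- sample of replicate 4 the difference was -0.92 (adjusted p = 0.0266), and without both samples of that slide it was -0.82 (adjusted p = 0.0111). Over all 22 alternatives the difference of S100a10 stayed between -0.92 and -0.59, and it passed the threshold in only 4.

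Of the 8 tested genes, 1 (Anxa2) was called lower and 0 higher in the unpaired limma fit, where 1.58% of all tested genes were called lower and 0.126% higher. Of the 8, 3 had an unadjusted p under 0.05 (Anxa2, Anxa6 and S100a10). The share of all tested genes under that p was not counted, so nothing is read from such counts here or for the lists below. With the replicate block, 2 (Anxa2 and S100a10) were called lower, where 4.12% of all tested genes were and 2.1% were called higher. Groups that did not overlap, with Sca-1+ below, were seen for 2 of the 8 (Anxa2 and Anxa6), against 5.03% of all tested genes. The median difference of the 8 was -0.33, beside 0.03 over all 19818 genes. These counts describe genes chosen with this comparison known. The plot of levels by sample shows the 9 genes with their replicates joined.

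**Figure D1:**
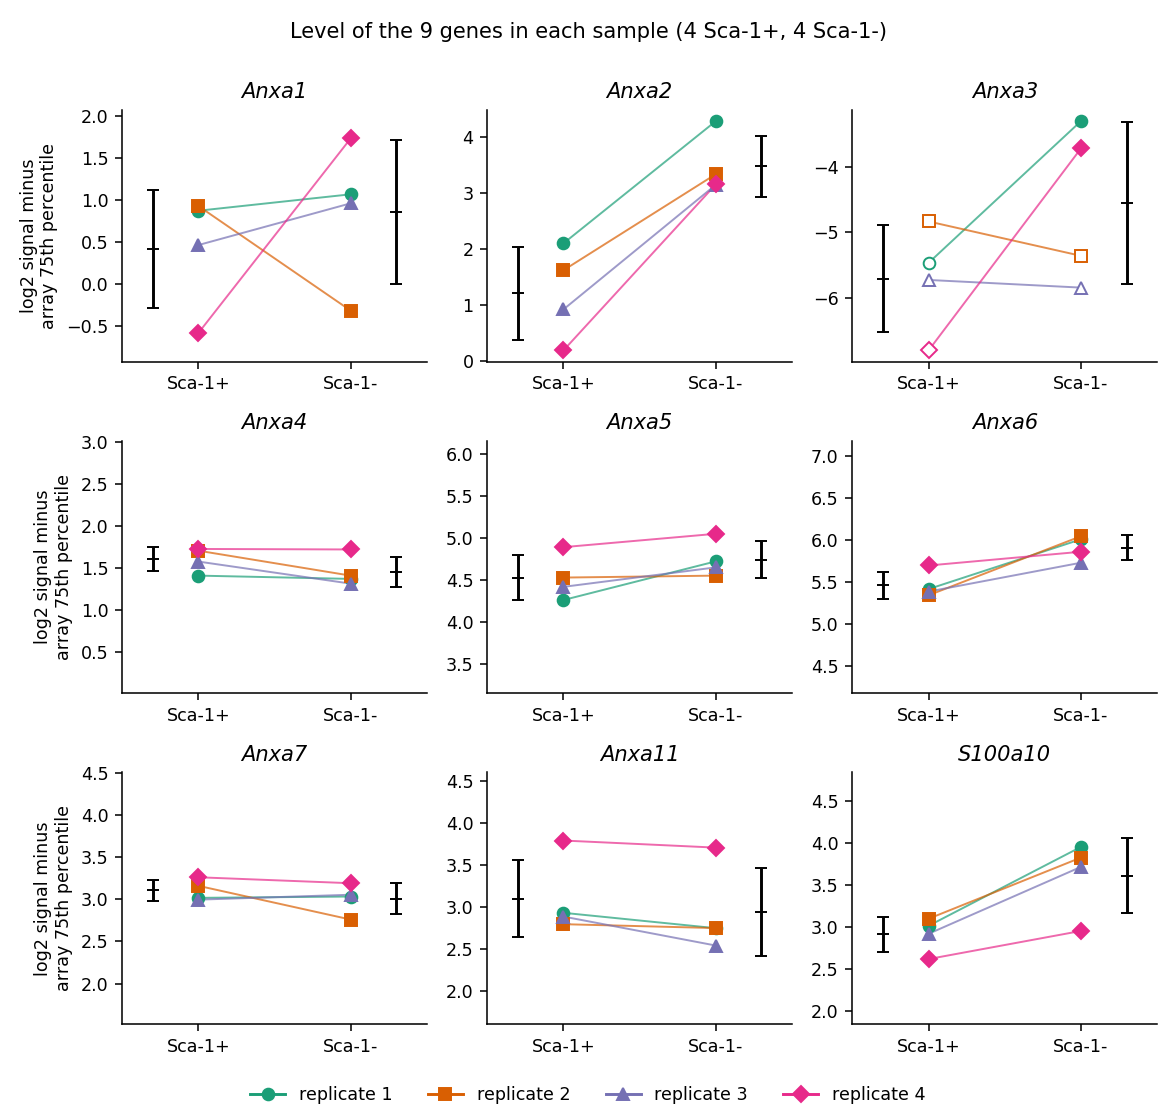
Level of each of the 9 genes (vertical axis, log2 processed signal minus the array 75th percentile) in 4 Sca-1+ and 4 Sca-1- pDC samples. Each panel has its own scale, lines join samples of the same replicate number, open symbols mark a probe not well above background, and the bars beside the points are the mean ± SD of 4 samples. Anxa2 and Anxa6 are the 2 tested genes whose groups do not overlap, and Anxa1, Anxa7 and the dim Anxa3 change sign between replicates.

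Anxa6, an annexin with a duplicated core that is tied to endosomes and membrane cholesterol, had a small difference in the same direction as Anxa2. Its levels were 5.42, 5.34, 5.39 and 5.70 in Sca-1+ samples, against 6.01, 6.05, 5.73 and 5.86 in Sca-1- samples. The groups did not overlap, but the highest Sca-1+ value lay just under the lowest Sca-1- value. The difference of -0.45 ± 0.14 (SE, 95% interval -0.77 to -0.14), or 1.37-fold lower, did not pass in limma (adjusted p = 0.256, and 0.0801 with the replicate block). Within replicates it was -0.59, -0.70, -0.34 and -0.16. With array weights it passed (adjusted p = 0.0152), the only 1 of the 22 alternatives in which it did.

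Anxa5, the phosphatidylserine binder used as a probe of dying cells, stood at 4.26, 4.53, 4.42 and 4.89 in Sca-1+ samples, against 4.72, 4.55, 4.65 and 5.05 in Sca-1- samples. The groups overlapped, although the Sca-1+ sample was the lower in each replicate, with differences of -0.46, -0.02, -0.23 and -0.16. The log2 difference was -0.22 ± 0.18 (SE, 95% interval -0.63 to 0.19, limma adjusted p = 0.962). A negative sign in all 4 replicates was seen for 4 of the 8 tested genes (Anxa2, Anxa5, Anxa6 and S100a10), against 17.8% of all tested genes, and a positive sign for 2 (Anxa4 and Anxa11), against 18.4%.

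Anxa4, an annexin of epithelial and secretory cell membranes, stood at 1.41, 1.70, 1.57 and 1.72 in Sca-1+ pDC, against 1.37, 1.41, 1.31 and 1.72 in Sca-1- pDC. The groups overlapped, and the difference of 0.15 ± 0.14 (SE) had a 95% interval from -0.18 to 0.48. Within replicates it ranged from 0.01 to 0.30.

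Anxa7, or synexin, which binds secretory granules and the calcium sensor sorcin, stood at 3.02, 3.16, 3.00 and 3.26 in Sca-1+ pDC, against 3.03, 2.76, 3.06 and 3.19 in Sca-1- pDC. Its difference was 0.10 ± 0.14 (SE, 95% interval -0.22 to 0.42), positive in replicates 2 and 4 and slightly negative in replicates 1 and 3. The second Anxa7 probe differed by 0.20 and shared the sign of the main probe in replicates 1, 2 and 4, while in replicate 3 it read 0.40 where the main probe read -0.06.

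Anxa11, whose N-terminus binds the penta-EF-hand protein Pdcd6, stood at 2.93, 2.79, 2.88 and 3.79 in Sca-1+ samples, against 2.74, 2.75, 2.54 and 3.70 in Sca-1- samples. Both samples of replicate 4 were high and the groups overlapped. The difference was 0.16 ± 0.31 (SE, 95% interval -0.55 to 0.88), with replicates of 0.18, 0.05, 0.34 and 0.08. The second Anxa11 probe differed by 0.07, with replicates of 0.40, -0.39, -0.05 and 0.32, and its lowest levels in both groups, -2.23 and -2.55, came from replicate 4. On the slide of replicate 4 the main probe of Anxa11 thus read highest and its second probe lowest in both groups, and the second Anxa7 probe was high there too, at 2.11 in Sca-1+ and 2.00 in Sca-1-. The part of the slide in these levels was not tested.

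Anxa1 and Anxa3, both prominent in myeloid cells, varied between replicates more than between the groups. Anxa1 stood at 0.87, 0.93, 0.46 and -0.59 in Sca-1+ pDC, against 1.06, -0.32, 0.96 and 1.73 in Sca-1- pDC. The groups overlapped through Sca-1- replicate 2, the other 3 Sca-1- samples lying above every Sca-1+ sample, with means of 0.42 ± 0.70 in Sca-1+ and 0.86 ± 0.86 in Sca-1- samples (SD, n = 4 each). The difference of -0.44 ± 0.48 (SE, 95% interval -1.53 to 0.65, limma adjusted p = 1.00) was made of -0.20, 1.25, -0.50 and -2.32 within replicates. The second Anxa1 probe had the same signs, with -0.33, 1.58, -0.51 and -2.00, so both probes carried the spread. Without replicate 4 the sign of the mean difference of Anxa1 turned, to 0.18.

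Anxa3, an annexin abundant in neutrophils, was not tested because 0 of 4 Sca-1+ and 2 of 4 Sca-1- arrays had its probe well above background. Its signals were 3.8, 6.7, 3.8 and 3.5 units in Sca-1+ samples, against 23.6, 3.7, 3.6 and 33.0 units in Sca-1- samples. The Sca-1- samples of replicates 1 and 4 were the ones above background. No fold is given, since the Sca-1- mean over all 4 arrays did not exceed the lowest signal detectable on the Sca-1+ arrays.

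**Figure D2:**
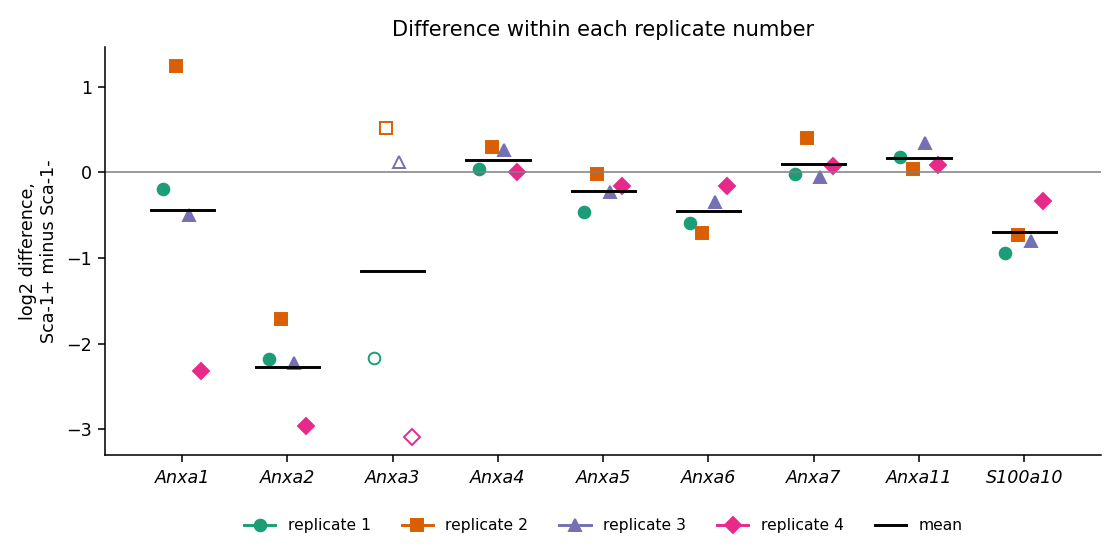
Difference within each replicate number (vertical axis, log2, Sca-1+ minus Sca-1-) for the 9 genes, with the mean as a bar. Open symbols mark Anxa3, which was not well above background in any Sca-1+ sample. The 4 Anxa2 differences lie between -2.96 and -1.72, S100a10 lies between -0.94 and -0.33, and Anxa1 spans -2.32 to 1.25.

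A few genes of other myeloid cells, picked after their values were seen, had differences whose signs followed those of Anxa1 in part. S100a8 and S100a9, the calprotectin subunits of neutrophils and monocytes, differed by -2.17, 1.46, 1.76 and -1.84, and by -2.41, 1.43, 1.57 and -1.36. Lyz2, the lysozyme of the same cells, differed by -1.48, 3.95, -0.33 and -2.45 and was well above background on 2 Sca-1+ and 3 Sca-1- arrays. These 3 genes and Anxa1 were lower in the Sca-1+ sample of replicates 1 and 4 and higher in that of replicate 2, while in replicate 3 their signs were mixed. Anxa3 was also lower in the Sca-1+ sample of replicates 1 and 4. In replicates 2 and 3 neither of its samples was well above background, so its signs there are not read. Of the other 4 neutrophil markers well above background on all arrays, Mpo had the signs of Anxa1 and 3 did not. Camp, a granule antimicrobial peptide, differed by 0.42, -0.77, 0.25 and -0.59, and Mpo, the granule peroxidase, by -0.41, 0.94, -0.25 and -0.66. Elane, neutrophil elastase, differed by 0.39, 0.06, 0.25 and 0.14, and Csf3r, the receptor for granulocyte colony-stimulating factor, by 0.25, -0.16, 0.18 and 0.30. Of the neutrophil list, 6 of 7 measured markers were well above background on all arrays and 0 of 7 on none, and their summed signal was 169 to 315 in Sca-1+ and 139 to 303 in Sca-1- samples, in units of the array 75th percentile. Csf3r, at 7.98 ± 0.41 in Sca-1+ and 7.84 ± 0.52 in Sca-1- samples (log2 level, SD, n = 4 each), made up most of that sum. The monocyte and macrophage list summed to 68.0 to 83.2 in Sca-1+ and 67.7 to 90.6 in Sca-1- samples, with 4 of 8 markers well above background on every array. Ccr2, at 5.66 ± 0.27 in Sca-1+ and 5.43 ± 0.37 in Sca-1- samples (log2 level, SD, n = 4 each), was the largest part of that sum. The sum therefore says little of its smaller members. The part of other cells in the Anxa1 and Anxa3 values was not tested.

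**Figure D3:**
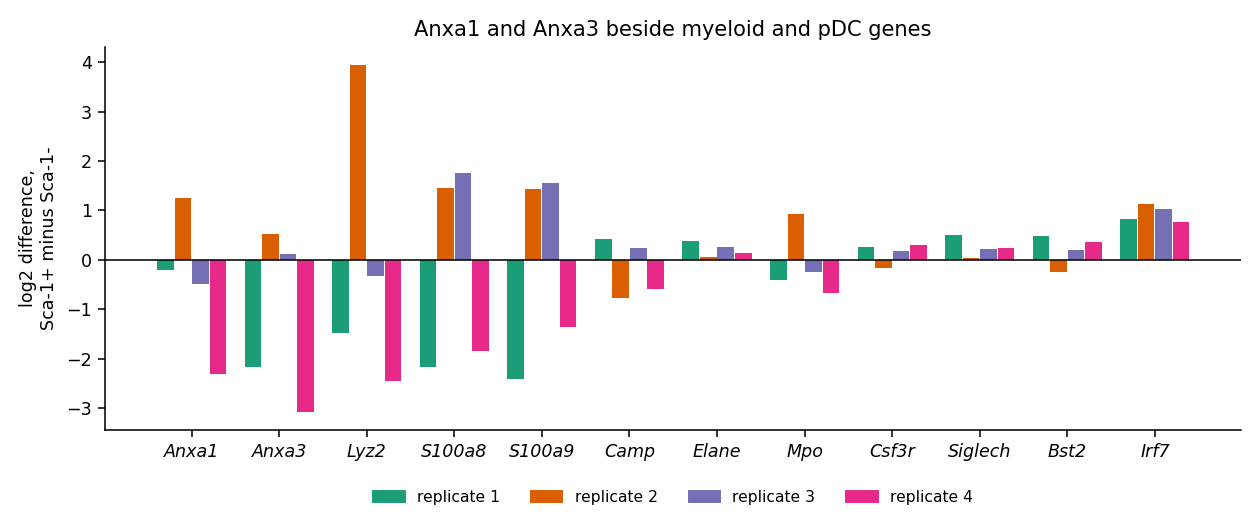
Difference within each replicate (vertical axis, log2, Sca-1+ minus Sca-1-) for Anxa1, Anxa3, the myeloid gene Lyz2, the 6 neutrophil markers well above background on all arrays (S100a8, S100a9, Camp, Elane, Mpo and Csf3r) and 3 of the 14 pDC markers, chosen after their values were seen. Anxa1, Lyz2, S100a8, S100a9 and Mpo are negative in replicates 1 and 4 and positive in replicate 2, and Camp, Elane and Csf3r are not. Anxa3 is negative in replicates 1 and 4. Dim samples are not marked. Anxa3 was not well above background in any Sca-1+ sample or in Sca-1- replicates 2 and 3, so its signs in replicates 2 and 3 are not read. Lyz2 was not in Sca-1+ replicates 1 and 3 or in Sca-1- replicate 2. Of the pDC genes Siglech and Bst2 stay between -0.24 and 0.51 while Irf7 lies between 0.77 and 1.14.

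Anxa2 was lower in the Sca-1+ sample of all 4 replicates, so its signs did not follow those of Anxa1. In size its fall was largest in replicate 4 (-2.96) and smallest in replicate 2 (-1.72), where Anxa1 differed by -2.32 and 1.25. Csf1r, the receptor for macrophage colony-stimulating factor and a member of the monocyte list, did differ in the direction of Anxa2, by -1.07, -1.14, -0.98 and -1.59 within replicates (mean -1.19 ± 0.32 SE, limma adjusted p = 0.171, and 0.00637 with the replicate block). Another member, Cd68, had a difference of 0.47 ± 0.25 (SE) and Cd14 one of -0.52 ± 0.23 (SE), and neither passed. A further member, Ccr2, differed by 0.22, 0.13, 0.45 and 0.12 within replicates (mean 0.23 ± 0.22 SE) and did not pass in either fit. Within replicates Cd14 was lower, and Cd68 and Ccr2 higher, in all 4. Of the 5 tested members of the monocyte list, 3 had a negative and 2 a positive mean difference. Conventional dendritic cell markers differed both ways. Zbtb46, a transcription factor of conventional dendritic cells, differed by -1.59, -1.03, -0.79 and -1.40 within replicates (mean -1.20 ± 0.48 SE, limma adjusted p = 0.470, and 0.0131 with the replicate block). Itgae (CD103) and Sirpa, which mark separate subsets of those cells, differed by 0.97 ± 0.53 and 0.54 ± 0.24 (SE, limma adjusted p = 0.745 and 0.549 unpaired, and 0.0162 and 0.0420 with the block). Of the 8 markers on that list, 6 were well above background on all arrays and 1 (Xcr1) on none, and the list summed to 99.2 to 112 in Sca-1+ and 98.1 to 112 in Sca-1- samples. Itgax (CD11c), at 6.14 ± 0.17 in Sca-1+ and 6.35 ± 0.08 in Sca-1- samples (log2 level, SD, n = 4 each), made up most of that sum. The sum therefore says little of the other markers. The part of monocyte-like cells and of conventional dendritic cells in the Anxa2 difference was not tested.

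The difference of Anxa2 was set against that of each other gene in the same samples. Anxa2 minus Anxa1 was -1.83 in difference between the groups, Anxa2 minus Anxa5 was -2.05, Anxa2 minus Anxa6 was -1.82, and Anxa2 minus S100a10 was -1.57. Against Anxa4, Anxa7 and Anxa11 it was -2.42, -2.37 and -2.44. For these 7 genes all Sca-1+ samples lay on 1 side of all Sca-1- samples, and the exact permutation test gave p = 0.0286, the smallest that 70 arrangements of 4 against 4 samples allow (two-sided, adjusted p = 0.0327 over 8 comparisons). Swapping the samples within replicate pairs alone gives 16 arrangements and allows no p below 0.125, the value found for each of the 7 genes (exact permutation test, two-sided, adjusted p = 0.143), so none passed that way. The comparison with Anxa3, the remaining 1 of the 8, is not read because its probe was below background on most arrays. Anxa2 was taken as the base because its difference was already known, so these p-values are no independent support. Anxa2 minus S100a10 was -1.24, -0.99, -1.43 and -2.63 within replicates.

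Of the other 4 annexins, 2 were tested, and 0 were called in the unpaired limma fit, where 1 of them (Anxa9) had an unadjusted p under 0.05. Anxa9, an atypical annexin, stood at 0.20, 0.02, -0.06 and 0.29 in Sca-1+ samples, against -0.49, -0.55, -0.62 and -0.07 in Sca-1- samples. The groups did not overlap, with Sca-1+ above, as for 1.91% of all tested genes, and the gap between the lowest Sca-1+ and the highest Sca-1- value was narrow. The difference of 0.55 ± 0.16 (SE) missed the threshold unpaired (limma adjusted p = 0.237) and passed with the replicate block (adjusted p = 0.0267), in the direction opposite to Anxa2. Anxa8 was dim, well above background on 4 Sca-1+ and 3 Sca-1- arrays, with a difference of 0.43 ± 0.27 (SE, adjusted p = 0.840), and its other probe was on 0 arrays. Anxa10 was well above background on 0 arrays, and Anxa13 on 1 Sca-1+ and 0 Sca-1- arrays.

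Some S100 proteins are binding partners of annexins, and of 16 other S100 genes on the array 10 were tested. Of these, 1 was called lower (S100a4) and 0 higher in the unpaired fit, against 1.58% and 0.126% of all tested genes. The median difference was -0.20. With the replicate block 2 were called lower (S100a4 and S100a16), against 4.12% of all tested genes. S100a4, which binds non-muscle myosin and is best known from motile cells, stood at 1.40, 1.74, 1.67 and 0.93 in Sca-1+ samples, against 3.38, 2.83, 2.79 and 3.32 in Sca-1- samples. Its groups were more than 1 log2 unit apart, and it fell by 1.65 ± 0.23 (SE) on the log2 scale (limma adjusted p = 0.00987). The second S100a4 probe differed by -1.62. S100a16 passed with the replicate block alone (-0.47 ± 0.27 SE, adjusted p = 0.765 unpaired and 0.0286 blocked), and its other probe differed by -0.15. S100a11, a known binding partner of Anxa1, had a difference of -0.41 ± 0.13 (SE, adjusted p = 0.313). Its groups did not overlap, with Sca-1+ below, as for 5.03% of all tested genes. S100a6, a partner of Anxa11, had a difference of -0.10 ± 0.15 (SE). S100a1 differed by -0.36 at its main probe and by 0.24 at its other probe, so its direction is not settled.

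**Figure D4:**
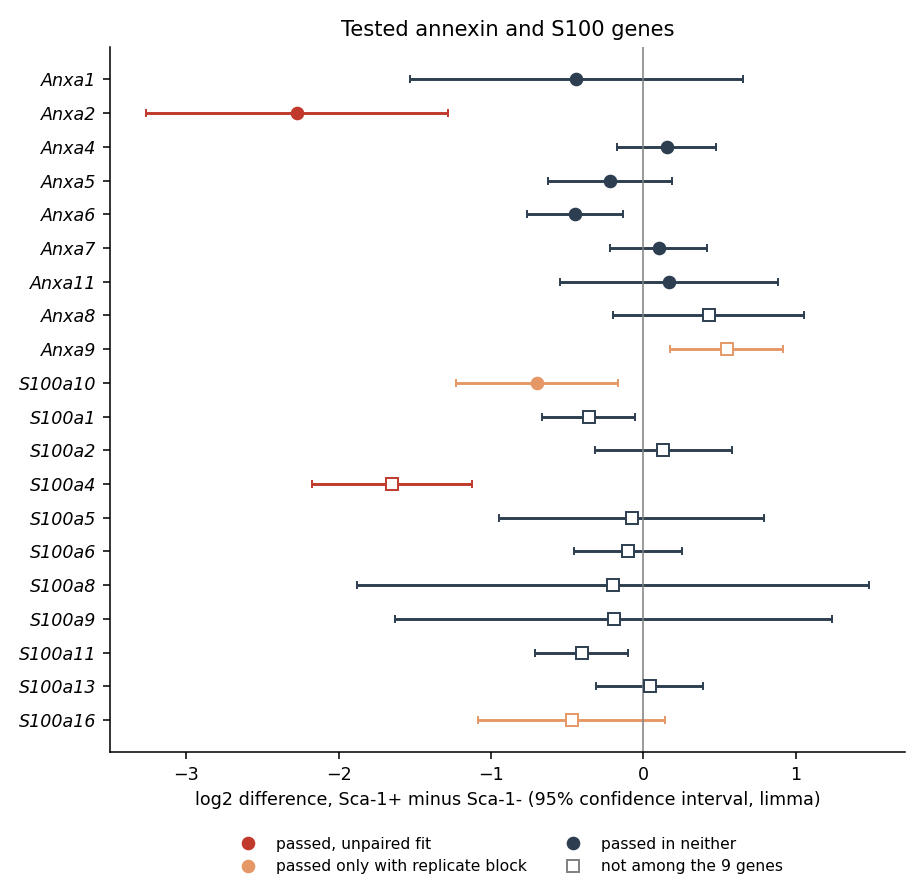
Log2 difference (horizontal axis, Sca-1+ minus Sca-1-, limma, with 95% confidence interval, n = 4 each) of the tested annexin and S100 genes. Red marks genes that passed in the unpaired fit (Anxa2 and S100a4), orange those that passed with the replicate block alone (S100a10, S100a16 and Anxa9), and open squares genes outside the 9.

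Few genes around these proteins passed the test. Of 12 genes of the plasminogen system and partners of the Anxa2 and S100a10 tetramer, 5 were tested and 0 called in either limma fit, with 0 at an unadjusted p under 0.05 in the unpaired one. Plaur, the urokinase receptor, differed by 0.08 ± 0.21 (SE), Plgrkt, a plasminogen receptor, by 0.17 ± 0.14, Ahnak, a scaffold that binds the tetramer, by -0.13 ± 0.15, Cdh5 (VE-cadherin) by -0.44 ± 0.32, and the potassium channel gene Kcnk3 by -0.27 ± 0.64. Plat, Plau and Plg were not tested because too few arrays were above background.

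Of 10 genes around Anxa1, its formyl peptide receptors and the phospholipase and eicosanoid enzymes, 4 were tested and 0 called in either limma fit, with 2 at an unadjusted p under 0.05 in the unpaired one. Alox5, which starts leukotriene synthesis, differed by -2.12 ± 0.45 (SE, limma adjusted p = 0.0672, and 0.0551 with the replicate block). Its groups did not overlap, with Sca-1+ below, as for 5.03% of all tested genes. The activating protein of Alox5, Alox5ap, differed by 0.02 ± 0.13. Pla2g4a, the cytosolic phospholipase A2, differed by -0.42 ± 0.15 (SE, adjusted p = 0.390), and Ptgs1 by -0.78 ± 0.76. None of the formyl peptide receptor genes was bright enough to be tested.

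Of 14 genes of calcium-dependent membrane repair, 10 were tested and 0 called in either limma fit, with 0 at an unadjusted p under 0.05 in the unpaired one and a median difference of -0.03. Sri (sorcin) differed by -0.13 ± 0.12, the calpain gene Capn2 by -0.16 ± 0.18, and the membrane-remodelling genes Chmp4b and Tsg101 by -0.19 ± 0.47 and -0.07 ± 0.20 (SE). Of 12 phosphatidylserine scramblases and flippases, 10 were tested and 0 called, likewise with 0 at an unadjusted p under 0.05. The scramblase genes Plscr1 and Xkr8 differed by 0.40 ± 0.25 and 0.38 ± 0.25, and the flippase gene Atp8b4 by -0.91 ± 0.74 (SE).

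Of 14 cortical actin linkers and raft proteins, 12 were tested, with a median difference of -0.27. In the unpaired fit 1 was called lower, against 1.58% of all tested genes. That 1 was Vim, the intermediate filament vimentin, which fell by 0.84 ± 0.15 (SE) on the log2 scale, with 5.06 ± 0.19 in Sca-1+ and 5.90 ± 0.19 in Sca-1- samples (SD, n = 4 each, limma adjusted p = 0.0354). The call passed in 9 of 22 alternatives, with adjusted p from 0.00336 to 0.328 and differences from -0.96 to -0.68. It was lost when Sca-1+ replicate 1, 2 or 3 was left out (adjusted p = 0.117, 0.0862 and 0.149) and when Sca-1- replicate 1, 2 or 3 was (0.121, 0.108 and 0.0935). Leaving out the whole pair 1, 2 or 3 also ended it (0.328, 0.235 and 0.325). Flna, or filamin A, differed by -0.97 ± 0.23 (SE, adjusted p = 0.113 unpaired and 0.0233 with the replicate block). With the block 2 of the 12 were called lower (Flna and Vim), against 4.12% of all tested genes. Ezr and Msn, the linkers ezrin and moesin, differed by -0.27 ± 0.15 and -0.29 ± 0.17 (SE).

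The profile of Anxa2 over the 8 samples was matched against 17676 genes by the root mean square difference after each gene's own mean was subtracted, where the median gene lay 1.33 log2 units away. With clone and locus names left out of the ranking, the nearest were Emilin2, an extracellular matrix glycoprotein, at 0.305 and Lrr1 at 0.309. Next came Cit (citron kinase, which acts in cell division) at 0.342, Cenph (a kinetochore protein) at 0.351 and Ska3 (of the spindle and kinetochore) at 0.361. They were picked for their likeness to Anxa2, so their own fall is part of the choice. Their differences were -2.02, -2.06, -1.92, -2.04 and -2.22. The likeness was measured over samples that share slides and groups, and it says nothing of shared control.

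**Figure D5:**
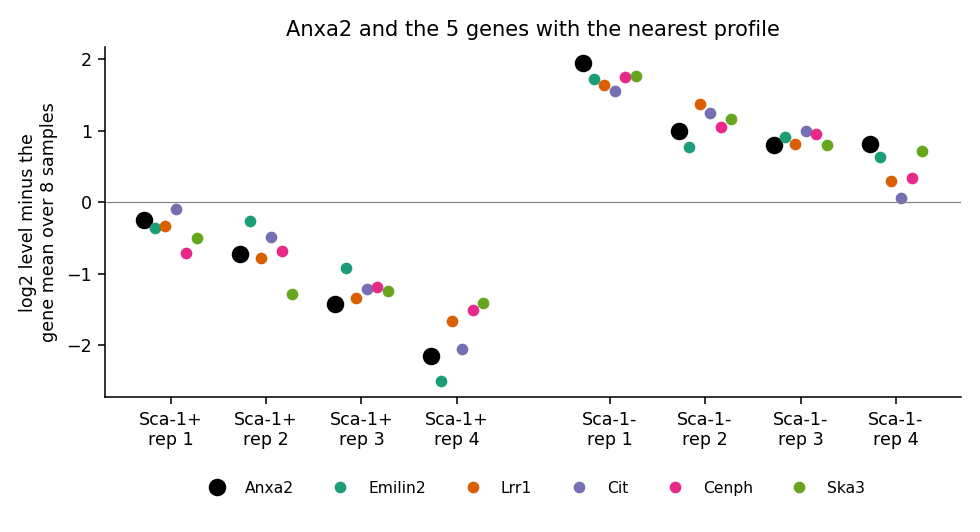
Centred level (vertical axis, log2 level minus the gene's mean over 8 samples) of Anxa2 and the 5 genes with the nearest profile, for each Sca-1+ and Sca-1- sample. Clone and locus names were left out of the ranking. Points of the genes are set side by side within a sample. All 6 genes lie below 0 in Sca-1+ samples and above 0 in Sca-1- samples, lowest at -2.50 for Emilin2 in Sca-1+ replicate 4.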

How the data were processed

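RNA of 4 Sca-1+ and 4 Sca-1- pDC samples, 100 ng each, was amplified, labelled with Cy3 and hybridised to 1-colour Agilent arrays, per the labels. The sample labels also speak of a polyA RNA amplification, without its relation to that step. The authors used version 10.7.3.1 of Agilent Feature Extraction to obtain the deposited spot intensity, which is background-corrected, per the file headers, and probe positions are on mm9. Other deposited columns, mean signal, local background and spot marks, served as filters and alternatives. The authors' deposited series table, on the log2 scale, has column medians of 3.90, and its columns correlated at 0.998 to 1.00 with their own arrays. Its centring is not stated there.

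Of 62976 spots on an array, 59305 were non-control. Control spots and 105 to 162 outlier spots per array were left out, 0 spots were saturated, and 0 arrays were identical to another. Log2 values of repeated spots were averaged, and each array's 75th percentile was subtracted. Names of other genes were updated through a RefSeq reference of build GRCm38.p6 (26582 by accession, 3094 by symbol, 26005 kept). A gene was read from its brightest probe over all arrays and tested where at least 4 of 8 arrays had it well above background, which left 19818 genes. The test was an unpaired, two-sided limma fit (version 3.58.1, with R 4.3.3 and version 1.17.8 of data.table), and Benjamini-Hochberg adjustment ran over all tested genes at a threshold of 0.05. Python 3.11.15 drew the figures with pandas 2.3.3, numpy 2.4.6 and matplotlib 3.10.9. The number of arrays limits the precision.

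Same-numbered samples share a slide, per the file headers, and their deviations from the group means correlated at 0.44, 0.43, 0.64 and 0.89 for replicates 1 to 4. With Sca-1- samples of other numbers, the highest correlations of Sca-1+ replicates 1 to 4 were 0.54, 0.26, 0.38 and -0.39. For replicate 1 the own number was thus not the highest. The replicate number was used as a block in an alternative fit. The fit was tested on simulated data for Sca-1+ against Sca-1- on 19818 genes with 200 changed, and it recovered 39% of changes of 1 and 85% of changes of 2 on the log2 scale, with 10 false calls. The simulated noise was independent for each gene and sample and held no slide effect, unlike the correlated samples above. These figures therefore need not hold for the real arrays. Alternatives covered scaling, quantile normalization, normexp background correction with an offset of 50, the authors' table, filters on dim probes, the mean over probes, the replicate block, a variance trend, array weights and each sample or replicate left out, and, chosen after seeing the data, swaps within replicate pairs and the same settings for Vim.

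Members and lists were chosen with earlier results of these data known. The text names Ly6a, all 9 genes with every probe, the detected annexins outside the 9, called genes of each other list or otherwise its 4 tested genes with the smallest p, and the 5 genes nearest to Anxa2 without clone and locus names. Some list genes that this rule would name are not reported here. S100a1, S100a6, S100a8, S100a9, S100a11, S100a16, Lyz2, Csf1r, Csf3r, Cd14, Cd68, Ccr2, Siglech, Bst2, Irf7, Ccr9, Tlr7, Camp, Elane, Mpo, Zbtb46, Itgae, Sirpa, Itgax, Xcr1, Plaur, Flna, Ezr, Msn and the genes named to complete small counts were named after their values were seen.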

Additional observations from a re-analysis of the deposited data

Results flagged for a closer look

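In 2 of the 18 groups of 4 samples formed by the 9 genes and both cell groups, 1 sample stood apart from the other 3. Anxa11 in Sca-1+ replicate 4, at 3.79, was separated from its nearest neighbour by a share of 0.864 of the whole range of its group. Anxa2 in Sca-1- replicate 1, at 4.28, was separated by a share of 0.833. About 1 in 20 such groups is marked by chance. The Sca-1- sample of replicate 4 was likewise the highest of its group for Anxa11, at 3.70. Without Sca-1- replicate 1 the difference of Anxa2 was -2.00 (limma adjusted p = 0.134), and without Sca-1+ replicate 4 that of Anxa11 was -0.065.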

How the results depend on the processing

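The direction of Anxa2, S100a10, Anxa4, Anxa5 and Anxa6 was the same under all 22 alternatives, and the median difference of all genes moved by under 0.1. The Anxa2 call was lost by a small margin with scaling on the median of detected probes (adjusted p = 0.0529), quantile normalization (0.0523) and the authors' table (0.0542), and with no filter on dim probes (0.102, with more genes tested), so that 0 of the 9 genes were called lower there. It was kept with normexp (-2.13, adjusted p = 0.0296). The call was also lost without Sca-1+ replicate 2 (0.0892), 3 (0.162) or 4 (0.0505), without Sca-1- replicate 1 (0.134), 2 (0.130) or 3 (0.105), and without both samples of replicate 1 (0.0885), 2 (0.248) or 3 (0.342). With a replicate left out, 0 to 2 of the 9 genes were called lower. The replicate block called 2 (Anxa2 and S100a10) and array weights 3. Over all genes, 25 were called higher and 314 lower. These became 6 and 176 with no filter, 416 and 817 with the replicate block and 464 and 981 with array weights. With a replicate left out they ranged from 1 to 264 higher and from 0 to 615 lower, lowest for lower calls without replicate 1 or 2 and highest without replicate 4. Over the 22 alternatives, 0 to 3 of the cortical actin and raft genes, 0 to 2 of the other S100 genes, 0 to 1 of the genes around Anxa1 and 0 of the plasminogen, membrane repair and scramblase genes were called lower. Vim lost its call in 13 alternatives, among them quantile normalization (0.0540), normexp (0.0627), the authors' table (0.0568) and no filter (0.165). S100a4 lost its call without both samples of replicate 1, 2 or 3 (highest adjusted p = 0.149). With replicates left out, 3 genes changed sign, none of them called. Anxa1 ranged from -1.003 to 0.18 (positive without replicate 4), Anxa7 from -0.0011 (without replicate 2) to 0.16, and Anxa11 from -0.065 (without Sca-1+ replicate 4) to 0.42. Anxa2 minus Anxa3 was -1.98 with normexp (exact permutation test, adjusted p = 0.0286), a value set by Anxa3 signals at background, from which nothing is read. An exact permutation test within replicate pairs, chosen after seeing the data, cannot pass with 16 arrangements, so that Anxa2 minus Anxa1 (-1.83), Anxa4 (-2.42), Anxa5 (-2.05), Anxa6 (-1.82), Anxa7 (-2.37), Anxa11 (-2.44) and S100a10 (-1.57) lost their call under that pairing (adjusted p = 0.143). The cause of the other changes was not tested. Anxa3, Anxa8 and Anxa10 are limited by signal near background.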
